A study of Mus musculus with 18 samples.

Results

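Reads of mouse sperm small RNA libraries that fall in small nucleolar RNA (snoRNA) families are described here, for 40 families. They were chosen as a list of 43 snoRNA families of the Rfam database, numbered as in the deposited table, of which 40 had reads. The 3 without reads in the libraries used were RF00054, RF00055 and RF00152. The table lists 764 Rfam families in all. All animals were male mice of the outbred ICR strain and the material was sperm. The F0 exposed males were given ammonia (NH3) together with hydrogen sulfide (H2S) for 5 weeks from 3 weeks of age, and the F0 control group is the label's control, with no further description. The F1 and F2 males were the sons and grandsons of F0 males and were themselves left untreated. F1 fathers were mated at 8 weeks of age, and females of normal ICR stock were used at each mating. The labels call the exposed groups NHS and do not spell this out. They give no age at semen collection, no purification of sperm from other cells, and no word on whether replicates are separate animals or pools, so p-values describe the scatter among these libraries alone, and that scatter may be technical.

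The study has 18 libraries, in 6 groups of 3. The Rfam part of the table is complete for 13 of them: 3 each of F0 control, F0 exposed, F1 control and F2 control, and 1 of the F2 exposed line. The 5 others (all 3 of the F1 exposed line, and replicates 2 and 3 of the F2 exposed line) hold between 1.74% and 42.3% of their reads in the deposited lists and were left out for the families. Library totals ran from 17224404 to 29430555 reads. A level is given in TPM, the reads of a family per 1000000 reads of its library with no term for length, so an order between families is an order of read numbers and not of molecules.

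snoRNAs are stable nuclear RNAs that pair with ribosomal RNA precursors. C/D box snoRNAs guide ribose methylation and H/ACA box snoRNAs guide the change of uridine to pseudouridine. A few, among them U3, U8, U14 and U22, act instead in the cutting of the precursor, and U13 is known for guiding an acetylation of small-subunit rRNA. Most mammalian snoRNAs are cut out of introns of host genes, while U3, U8 and U13 have genes of their own. Late in spermatogenesis the nucleolus is lost, and small RNA libraries of sperm and other cells contain short pieces of snoRNAs, some of which databases list as microRNAs (miRNAs).

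The genes of 3 families described below, whose groups lay apart in at least 1 comparison, are printed 5′ to 3′ from the GENCODE M21 annotation (mouse build GRCm38), to show the kind of RNA these reads come from. In Snord52 and Snord73a the capitals mark the C box letters NTGATGA, searched in the first 30 bases, and the D box letters CTGA, searched in the last 20. In the H/ACA snoRNA Snora81 they mark the letters ANANNA between 35% and 65% of the length, while the letters ACA were not found 3 bases from the end of this gene model.

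Snord52 (SNORD52), chr17:34950952-34951017, minus strand: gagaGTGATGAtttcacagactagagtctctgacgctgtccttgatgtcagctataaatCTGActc

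Snord73a (SNORD73), chr3:86138791-86138858, minus strand: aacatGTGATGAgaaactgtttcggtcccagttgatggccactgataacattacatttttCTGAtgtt

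Snora81 (SNORA81), chr16:23110756-23110933, plus strand: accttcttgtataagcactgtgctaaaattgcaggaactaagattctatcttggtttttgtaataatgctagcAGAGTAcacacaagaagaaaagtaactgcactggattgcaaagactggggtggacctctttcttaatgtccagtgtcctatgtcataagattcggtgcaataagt

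Only the RNA strand was searched. Over all 1558 snoRNA and small Cajal body RNA (scaRNA) genes of the annotation, 20.2% hold both the C and D letters in those windows, and 77.3% hold ANANNA in the middle stretch. A match is a description of the letters. For 19 of the 43 families a mouse gene was found by symbol. Both the C and D letters were found in 8 of 15 such C/D genes, and the ACA letters in 2 of 4 H/ACA genes, against 19.3% of all genes. A family can have several gene copies, and the table does not say which copy or which end a read came from. RF00186, RF00187, RF00188 and RF00217 are called by their numbers, since the table gives no names and theirs are not certain. In counts by role they were placed with the C/D guides, and no sequence was at hand to check this.

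The snoRNA families made up a small and uneven share of the reads. Their summed level was 808, 276 and 637 TPM in F0 control replicates 1 to 3 and 397, 1516 and 427 TPM in F0 exposed replicates 1 to 3. It was 1356, 998 and 1040 TPM in the F1 controls. It was 1013, 1489 and 2929 TPM in the F2 controls and 1457 TPM in the single F2 exposed library. All 6 F1 and F2 control libraries lay above all 3 F0 controls, the F0 exposed libraries overlapped with the F0 controls, and F1 and F2 controls overlapped. The whole Rfam class averaged 4.56% of reads in F0 controls and 8.24% in F1 controls. Of its reads the snoRNA families took 0.825% to 1.55% in F0 controls, 1.05% to 2.03% in F1 controls and 3.08% to 4.51% in F2 controls. On that scale F1 and F0 controls overlapped, and the F2 controls lay above both. The mean in F0 controls was 574 ± 272 TPM (SD, n = 3), in F1 controls 1131 ± 195 TPM (SD, n = 3) and in F2 controls 1810 ± 998 TPM (SD, n = 3), which is 3.16 times the F0 control mean. The families were chosen with results in view, so these sums carry no test. In libraries of bulk sperm, fewer cells of a type and less RNA per cell cannot be told apart.

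**Figure D1:**
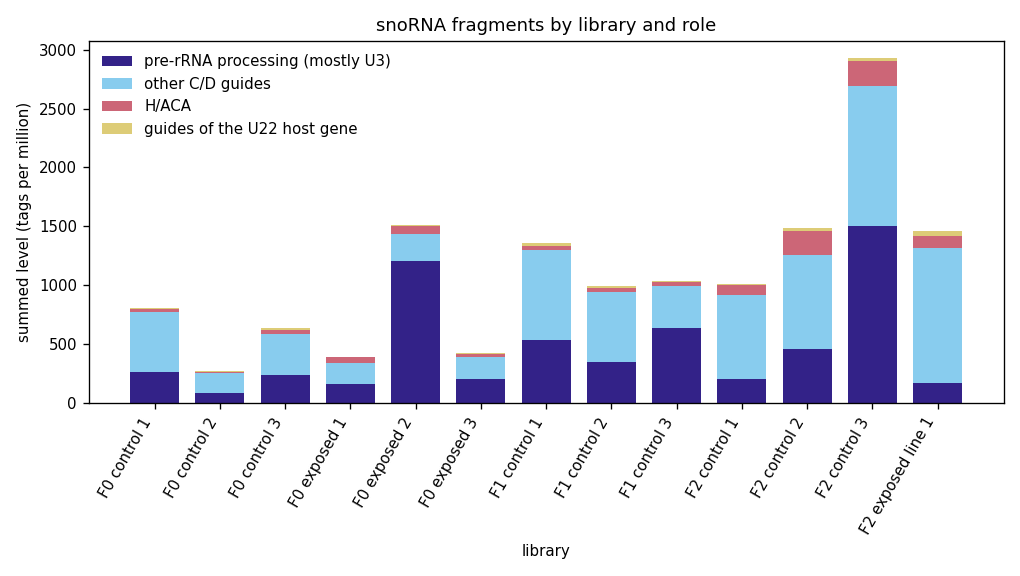
Summed level of the 40 families in each of the 13 libraries (y axis, TPM), with the bars divided by role. U3 makes up most of the pre-rRNA processing block, which is tallest in F0 exposed replicate 2 and F2 control replicate 3. The H/ACA block reaches 82.1 to 212 TPM in the F2 controls, against 15.6 to 27.4 TPM in the F0 controls.

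One family, U3, set much of the total. Of all reads in the 40 families, U3 took between 10.4% (Wilson 95% interval 10.1% to 10.7%) in the F2 exposed library and 76.5% (76.1% to 76.9%) in F0 exposed replicate 2. It was the family with the most reads in 11 of the 13 libraries. SNORD43 led in the other two, F2 control replicate 1 and the F2 exposed library. Such intervals, and the floors below, cover counting error only. Without U3, the summed level averaged 404 ± 182 TPM in F0 controls (SD, n = 3), 289 ± 60.6 TPM in F0 exposed libraries (SD, n = 3) and 1114 ± 312 TPM in F2 controls (SD, n = 3). So the F0 exposed mean was 1.36 times the F0 control mean with U3 and 0.715 times without it, and leaving out F0 exposed replicate 2 turned the log2 ratio of the sums from 0.44 to -0.48.

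Of the 40 families, 35 had reads in all 13 libraries and 35 passed the level filter (at least 1 TPM in at least 3 libraries), so 5 (U8, SNORD16, SNORD27, SNORD63 and SNORA62) were not tested. The heatmap of the 40 families shows how they spread. Family means over the 13 libraries ran from 0.0521 TPM for SNORD27 to 435 TPM for U3. The family with the widest range was RF00187, from 0.0472 TPM in F0 control replicate 2 to 67.9 TPM in F1 control replicate 1. Among families with reads in all libraries the narrowest range belonged to U14, from 10.1 to 33.3 TPM, or 3.29 times.

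**Figure D2:**
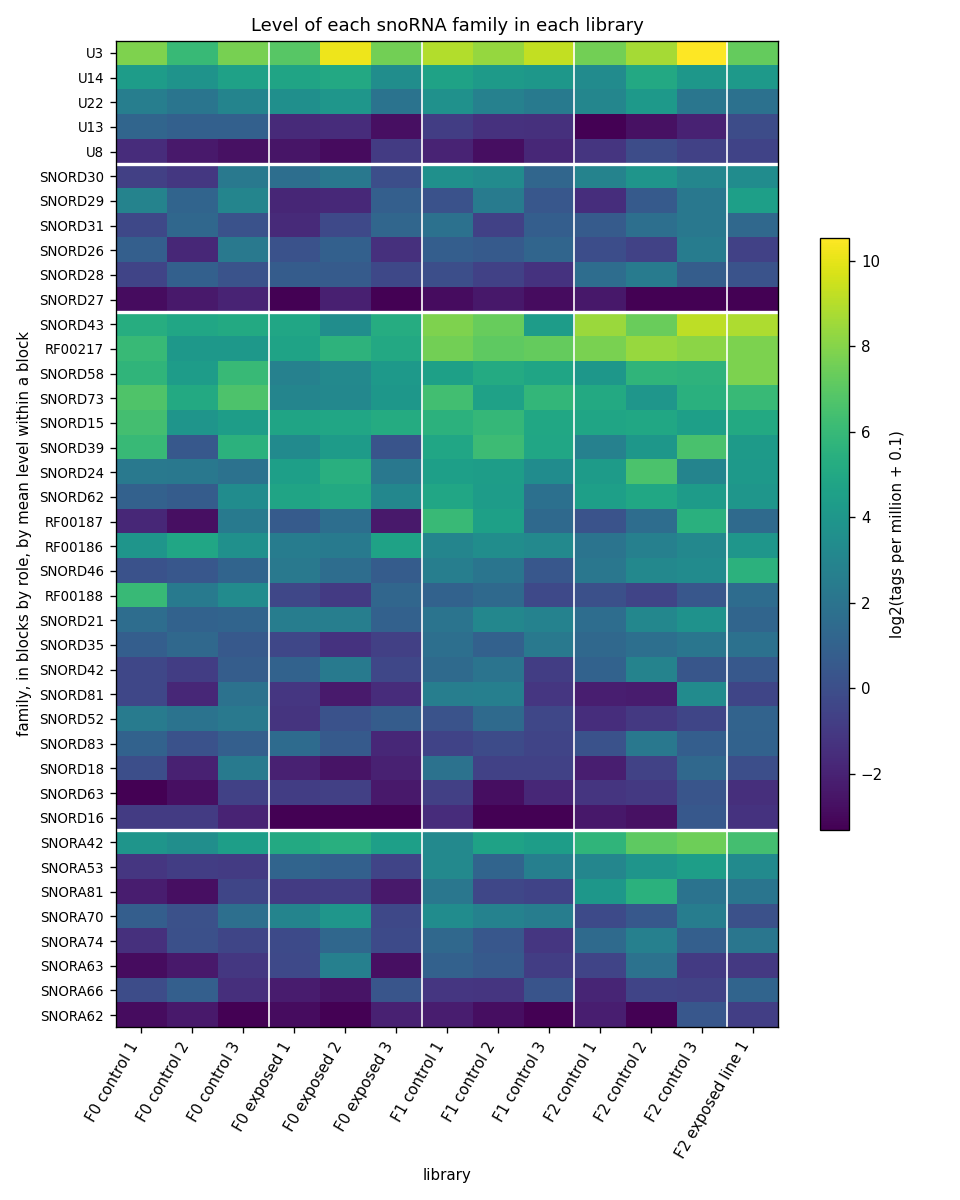
Level of each snoRNA family (rows, in blocks by role) in each of the 13 libraries (columns), as log2(TPM + 0.1). U3 is bright throughout, U13 is brightest in the 3 F0 controls, and SNORA42, SNORA53, SNORA81 and RF00217 are brighter in the F2 controls than in the F0 controls.

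Among the snoRNAs of pre-rRNA processing, U3, which acts at the earliest cuts of the precursor, stood at 236, 64.9 and 207 TPM in the F0 controls and 125, 1160 and 189 TPM in the F0 exposed libraries. In the F1 controls it was 498, 321 and 613 TPM, in the F2 controls 190, 413 and 1486 TPM, and in the F2 exposed library 151 TPM. Single libraries (F0 exposed replicate 2, F2 control replicate 3) were far above the rest of their groups, and the F0 groups overlapped. The 3 F1 controls lay above the 3 F0 controls. U3 passed the test in none of the 6 comparisons (smallest adjusted p 0.2221, F1 control against F0 control, log2 fold change 1.48, SE 0.73, edgeR quasi-likelihood test with Benjamini-Hochberg adjustment over 231 families).

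U14, which serves both in cutting and as a methylation guide, stood at 20.3, 13.8 and 24.5 TPM in F0 controls, 26.8, 33.1 and 11.01 in F0 exposed libraries, 24.9, 18.9 and 16.2 in F1 controls, 10.1, 33.3 and 16.1 in F2 controls and 17.8 in the F2 exposed library. All its groups overlapped. U22, also needed for small-subunit rRNA, stood at 5.999, 4.06 and 7.53 TPM in F0 controls, 12.1, 15.5 and 3.73 in F0 exposed libraries, 12.6, 6.67 and 4.98 in F1 controls, 7.99, 17.1 and 4.25 in F2 controls and 3.55 in the F2 exposed library. Neither passed the test in any comparison.

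U8, which acts in maturation of large-subunit rRNA, was near the limit of detection, with 83 reads over the 13 libraries. Its level was 0.235, 0.0945 and 0.0534 TPM in F0 controls, 0.0721, 0.0340 and 0.425 in F0 exposed libraries, 0.156, 0.0425 and 0.196 in F1 controls, 0.335, 0.830 and 0.536 in F2 controls and 0.578 in the F2 exposed library. The F2 controls lay above all F0 and F1 controls, but U8 was below the level filter and was not tested.

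U13, at few reads, had 55, 38 and 34 reads in F0 control replicates 1 to 3 (2.16, 1.79 and 1.81 TPM) and 6, 7 and 1 in the F0 exposed libraries (0.216, 0.238 and 0.0473 TPM). In the F1 controls it had 12, 7 and 7 reads (0.469, 0.297 and 0.275 TPM), in the F2 controls 0, 1 and 4 (0, 0.0553 and 0.153 TPM), and in the F2 exposed library 22 (0.848 TPM). The count of 0 in F2 control replicate 1 allows a level up to 0.125 TPM (3 reads). The 3 F0 controls lay above every other library, and U13 was the only tested family of the 40 that passed the level filter through 1 group alone, the F0 controls. A family that passes in this way has to differ from that group, so its calls below support nothing by themselves.

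The comparison of exposed with control F0 males addresses the direct effect of the gases. No snoRNA family passed the test, and of all 231 families 0.0% did (edgeR, adjusted p under 0.05). At an unadjusted p under 0.05 there were 13 snoRNA families of 35 tested and 46 of all 231. The median log2 fold change was 0.01 over the snoRNA families and 0.30 over all families, with 18 snoRNA families higher and 17 lower. By role, 6 of 7 tested H/ACA families were higher. Of the 19 tested C/D guides outside the host gene of U22, 11 were lower (13 under library totals). Of the 5 tested guides of that host gene, 4 were lower (3 under library totals). Under library totals 17 of all 35 snoRNA families were higher and 18 lower. Over all 231 families 136 were higher and 95 lower, none past the threshold.

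The 4 smallest p values belonged to families with lower values in the exposed males. U13 differed by a log2 fold change of -3.50 (SE 0.88, adjusted p = 0.0864, edgeR). RF00188 stood at 65.1, 5.05 and 10.2 TPM in the controls and 0.685, 0.408 and 2.32 TPM in the exposed libraries, a log2 fold change of -3.81 (SE 1.04, adjusted p = 0.0864, edgeR). The groups did not overlap, though the controls spanned a wide range.

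SNORD73, a methylation guide, stood at 105, 34.0 and 101 TPM in the controls and 7.78, 8.63 and 16.1 TPM in the exposed libraries. Its groups did not overlap, and its log2 fold change was -2.41 (SE 0.71, adjusted p = 0.0864, edgeR). SNORD18 stood at 0.902, 0.142 and 5.23 TPM in the controls and 0.144, 0.0680 and 0.142 TPM in the exposed libraries, which overlapped with control replicate 2 (log2 fold change -3.65, SE 1.29, adjusted p = 0.1545, edgeR).

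In the later generations SNORD73 stood at 81.8, 24.7 and 58.7 TPM in F1 controls, 34.3, 15.4 and 45.0 TPM in F2 controls and 65.8 TPM in the F2 exposed library. The F1 and F2 controls overlapped with the F0 controls. SNORD18 stood at 3.67, 0.552 and 0.549 TPM in F1 controls, 0.125, 0.553 and 2.49 TPM in F2 controls and 0.887 TPM in the F2 exposed library. Its controls of all 3 generations overlapped.

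Counted by levels alone, 7 of the 35 tested snoRNA families had all 3 exposed libraries below all 3 controls, against 9.09% of all families tested. They were U13, RF00188, SNORD73, SNORD52, SNORD58, SNORD29 and SNORD35. Those given a name are C/D families, and RF00188 is only counted with the C/D guides. U13 is among the 7, a place fixed by the level filter. In the other direction there were 2, the H/ACA families SNORA42 and SNORA53, against 8.66% of all families. SNORD58, for example, stood at 52.9, 20.3 and 64.7 TPM in controls and 6.63, 9.17 and 18.1 TPM in exposed libraries. SNORA42 stood at 14.7, 11.2 and 21.8 TPM in controls and 33.9, 42.6 and 22.8 TPM in exposed libraries.

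Calls in this comparison turned on exposed replicate 3, on the tool and on the level filter. Without exposed replicate 3, 8 snoRNA families passed (2 higher, 6 lower) of 21 families in all, and with DESeq2 8 passed (2 higher, 6 lower) of 27 in all. Control replicate 2 and exposed replicate 3 had 43.2 and 152.5 TPM in the tRNA family RF00005, where the 4 other F0 libraries had 3542.0 to 11858.5. A fit of only the libraries with the larger tRNA level held these 4, the F1 controls and F2 control replicate 3. In its F0 comparison 7 snoRNA families passed (2 higher, 5 lower) of 31 in all. The lower ones were SNORD73, RF00188, SNORD18, SNORD58 and SNORD29. A term for larger or smaller tRNA level, and not for the level itself, was added to the fit of all 13 libraries. It left 0 snoRNA families and 0 of all families called.

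miRNAs that mark other cells were present in both groups. The germ cell miRNAs miR-34b, miR-34c and miR-449a, summed over their arms, stood at 4016 to 7881 TPM in F0 controls and 6785 to 18655 TPM in F0 exposed libraries. The 4 red blood cell miRNAs summed to 10331 to 77971 and 20355 to 36006 TPM, and the 3 leukocyte miRNAs to 455 to 1950 and 415 to 924 TPM. The 2 smooth muscle miRNAs summed to 62659 to 169501 and 47153 to 119136 TPM, and the 6 epithelial ones to 20899 to 28970 and 12280 to 28622 TPM. The ranges of all 5 lists overlapped between the groups, and their part in the F0 results was not tested.

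**Figure D3:**
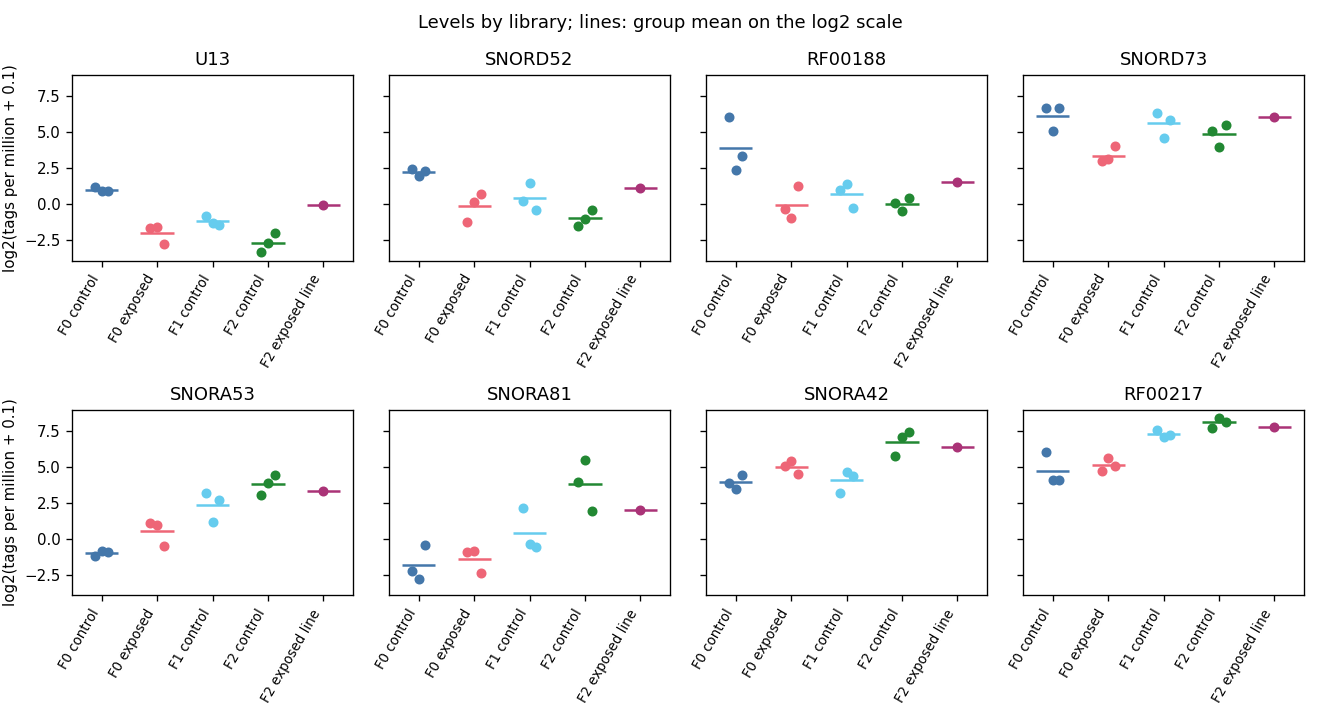
Level of 8 families in each library (points, log2(TPM + 0.1)) with the group mean on that scale (lines). In the upper row, U13, SNORD52 and RF00188 are highest in the 3 F0 controls, and SNORD73 is lower in the 3 F0 exposed libraries than in the 3 F0 controls. In the lower row, SNORA53, SNORA81, SNORA42 and RF00217 are higher in the 3 F2 controls than in the 3 F0 controls.

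The comparison of F2 with F0 controls holds no exposure in either group. It sets untreated grandsons against control grandfathers, and it had the most calls. Of the 35 tested families 7 passed the test, 4 higher and 3 lower, where 11.7% of all 231 families passed (27, with 6.06% higher and 5.63% lower). The higher ones were the H/ACA families SNORA81, SNORA53 and SNORA42 and the family RF00217. The lower ones were U13, RF00188 and SNORD52. The median log2 fold change was 0.26 over the snoRNA families and 0.11 over all families.

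SNORA53 stood at 0.353, 0.472 and 0.427 TPM in F0 controls and 8.16, 14.8 and 21.6 TPM in F2 controls. All F2 controls lay above all F0 controls and the log2 fold change was 4.31 (SE 0.81, adjusted p = 0.006786, edgeR). It was 2.09, 1.83 and 0.614 TPM in F0 exposed libraries, 8.99, 2.12 and 6.32 TPM in F1 controls and 9.83 TPM in the F2 exposed library, so the F0 libraries of either kind were the lowest.

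SNORA81 stood at 0.118, 0.0472 and 0.640 TPM in F0 controls and 15.8, 45.8 and 3.79 TPM in F2 controls, with no overlap and a log2 fold change of 6.03 (SE 1.29, adjusted p = 0.01044, edgeR). It had 3, 1 and 12 reads in those F0 controls and 377, 828 and 99 in those F2 controls. Elsewhere it was 0.432, 0.476 and 0.0945 TPM in F0 exposed libraries, 4.38, 0.680 and 0.589 TPM in F1 controls and 4.05 TPM in the F2 exposed library.

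SNORA42, the H/ACA family with the most reads, stood at 53.9, 137 and 177 TPM in F2 controls against the 11.2 to 21.8 TPM of F0 controls (log2 fold change 2.21, SE 0.58, adjusted p = 0.02434, edgeR). In F1 controls it was 9.26, 25.3 and 20.9 TPM, which overlapped with the F0 controls, and in the F2 exposed library it was 83.9 TPM. The 8 H/ACA families together summed to 18.0, 15.6 and 27.4 TPM in F0 controls, 45.6, 69.2 and 26.3 TPM in F0 exposed libraries, 37.9, 38.1 and 35.5 TPM in F1 controls, 82.1, 209 and 212 TPM in F2 controls and 106 TPM in the F2 exposed library. Of their 7 tested members 3 passed and 5 were higher (6 under library totals, where SNORA70 turned to 0.45). The other 4 did not pass, at log2 fold changes of 2.67 (SNORA63), 1.76 (SNORA74), -0.39 (SNORA70) and -2.11 (SNORA66).

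RF00217 stood at 65.1, 16.9 and 16.9 TPM in F0 controls, 26.4, 48.9 and 33.4 TPM in F0 exposed libraries, 194, 135 and 153 TPM in F1 controls, 213, 339 and 284 TPM in F2 controls and 224 TPM in the F2 exposed library. The 7 F1 and F2 libraries lay above all 6 F0 libraries (F2 against F0 controls: log2 fold change 2.62, SE 0.60, adjusted p = 0.01299, edgeR). SNORD43, a methylation guide, stood at 40.3, 29.0 and 34.7 TPM in F0 controls, 29.3, 11.01 and 38.1 TPM in F0 exposed libraries, 228, 160 and 20.5 TPM in F1 controls, 349, 164 and 562 TPM in F2 controls and 458 TPM in the F2 exposed library. It missed the threshold in F2 against F0 controls (log2 fold change 2.70, SE 0.86, adjusted p = 0.05498, edgeR).

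Among the lower families, SNORD52 stood at 5.41, 3.78 and 4.75 TPM in F0 controls and 0.251, 0.387 and 0.651 TPM in F2 controls (log2 fold change -4.15, SE 0.90, adjusted p = 0.01044, edgeR). It was 0.324, 1.02 and 1.51 TPM in F0 exposed libraries, 1.06, 2.72 and 0.667 TPM in F1 controls and 2.04 TPM in the F2 exposed library, so the F0 controls were the 3 highest of all libraries. RF00188 stood at 0.962, 0.609 and 1.26 TPM in F2 controls (log2 fold change -5.11, SE 1.11, adjusted p = 0.01044, edgeR). It was 1.92, 2.55 and 0.746 TPM in F1 controls and 2.89 TPM in the F2 exposed library, and its F0 controls too were the 3 highest. U13 differed by -5.53 (SE 0.98, adjusted p = 0.005648, edgeR). The comparisons of F0 exposed, F1 control and F2 control libraries with the F0 controls share those 3 F0 controls.

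**Figure D4:**
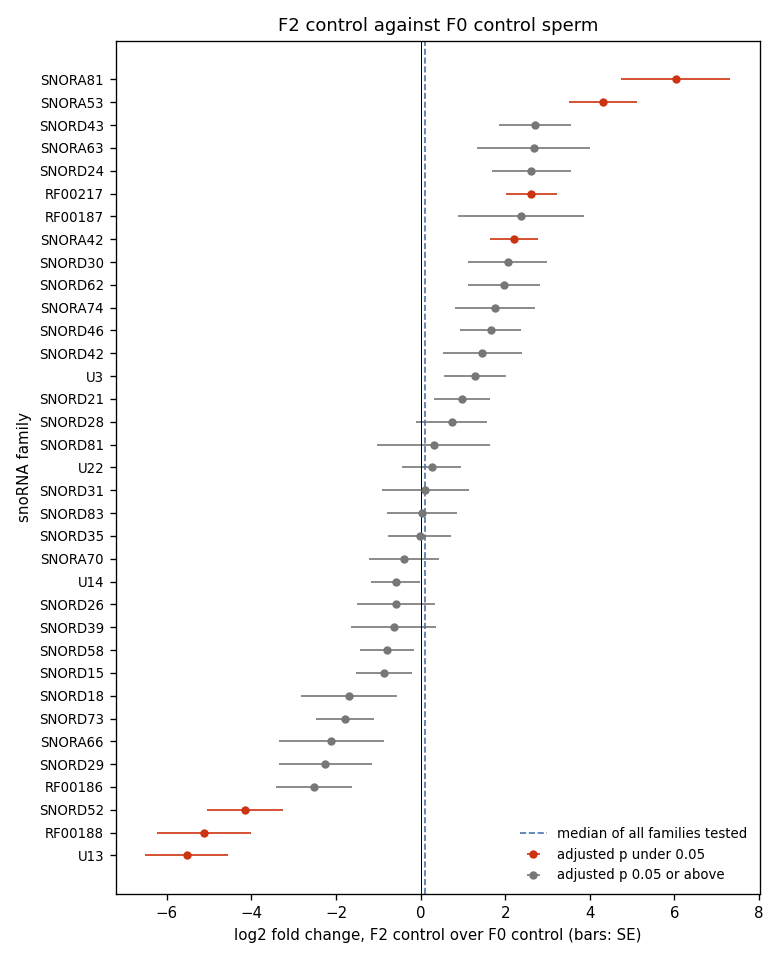
Log2 fold change of the 35 tested snoRNA families, F2 control over F0 control, with standard errors, in order of size. The 7 families past the threshold are red, and the dashed line is the median of all 231 families tested (0.11).

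By levels alone, 12 of 35 snoRNA families (34.3%) had all F2 controls above all F0 controls, against 23.8% of all families, and 4 (11.4%) had them all below, against 10.4%. U13 is among the 4, a place fixed by the level filter. Scaling to library totals in place of edgeR's TMM factors moved the median of all families from 0.11 to 0.81 in F2 against F0 controls, and that of the snoRNA families from 0.26 to 1.19. Under it 9 snoRNA families passed, 6 higher and 3 lower, of 34 families in all, with the direction of the 7 families unchanged. The same change of scaling moved the median of all families from 0.30 to 0.09 in F0 exposed against control males, from 0.17 to 0.30 in F1 against F0 controls and from -0.01 to 0.51 in F2 against F1 controls. It turned the snoRNA median from 0.01 to -0.11 in the first of these and from -0.19 to 0.29 in the last.

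The number of calls depended on single F0 controls. It was 3 of 34 tested without F0 control replicate 1 (SNORA53, RF00217 and SNORD52), where 7 of all families passed. It was 4 without replicate 2 and 4 without replicate 3 (SNORA53, SNORA81, SNORD52 and RF00188 each time), where 15 and 9 of all families passed. With all libraries 27 of all families had passed. U13 no longer passed the level filter in these 3 fits. SNORA53 and SNORD52 passed in each fit that left out 1 of these libraries or 1 F2 control. Among only the libraries with the larger tRNA level, which leaves 2 F0 controls and F2 control replicate 3 alone, 1 snoRNA family passed, SNORA53, of 7 in all. With a term for larger or smaller tRNA level in the fit of all libraries 10 snoRNA families passed, of 45 in all.

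The marker miRNAs of smooth muscle, epithelium and germ cells did not overlap between F0 and F2 controls, and those of red blood cells and leukocytes did. miRNAs of smooth muscle (miR-143 and miR-145a, summed over their arms) stood at 62659 to 169501 TPM in F0 controls, 5927 to 13214 in F1 controls and 12105 to 29705 in F2 controls. The 4 red blood cell miRNAs summed to 10331 to 77971 TPM in F0 controls and 4403 to 11774 in F2 controls, and the 6 epithelial miRNAs to 20899 to 28970 and 6237 to 9248 TPM. The 3 leukocyte miRNAs overlapped, at 455 to 1950 TPM in F0 controls and 1046 to 2738 in F2 controls. The 3 germ cell miRNAs summed to 4016 to 7881 TPM in F0 controls, 12750 to 20471 in F1 controls and 18631 to 22170 in F2 controls. All members of each list were detected in these libraries. The sperm libraries thus held reads of miRNAs taken as markers of several cell types. The cell make-up itself was not measured, and its part in the snoRNA results was not tested.

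Of the other fixed lists of Rfam families, the 5 families of ribosomal RNA and RNase MRP held 1 that passed in F2 against F0 controls (lower). The 6 tested families of spliceosomal RNA held 1 (higher). The 5 tested families of other cellular RNA held 1 (higher), and the 4 tested bacterial families held 0. Of all 231 families 11.7% passed. In F0 exposed against control males none of these passed.

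Between F1 and F0 controls no snoRNA family passed the test, as was so for all families (0.0% called, edgeR). At an unadjusted p under 0.05 there were 10 snoRNA families and 55 of all 231. The 4 with the smallest p were SNORA53 (log2 fold change 3.48, SE 0.78, adjusted p = 0.06405), RF00217 (2.22, SE 0.59, same adjusted p), RF00188 (-3.85, SE 1.04, same adjusted p) and U13 (-2.71, SE 0.83, adjusted p = 0.1037). In all 4 the F1 and F0 controls did not overlap. By levels alone 7 of 35 families lay above and 5 below, against 15.6% and 13.9% of all families. U13 is among the 5, a place fixed by the level filter.

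Between F2 and F1 controls 0.866% of all families passed, 2 of 231, and no snoRNA family (6 at an unadjusted p under 0.05, against 32 of all families). The smallest p belonged to SNORA42 (log2 fold change 2.15, SE 0.58, adjusted p = 0.08289, edgeR), whose F2 controls lay above all F1 controls. It was followed by U13 (-2.82, SE 0.92, adjusted p = 0.1574), SNORA81 (3.29, SE 1.12, adjusted p = 0.168) and SNORD52 (-2.30, SE 0.84, adjusted p = 0.2159). By levels alone 4 of 35 families lay above and 3 below, against 12.6% and 6.93% of all families. SNORA81 overlapped, since F1 control replicate 1 at 4.38 TPM lay above F2 control replicate 3 at 3.79 TPM.

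The F2 exposed line could be compared only through 1 library, whose spread is assumed to be like that of the other groups. No family passed, so 0.0% of all 231 were called (10 at an unadjusted p under 0.05, 4 of them snoRNA families, edgeR), and DESeq2 called 1 of all families and no snoRNA family. The 4 smallest p values belonged to U13 (log2 fold change 3.48, SE 1.09, adjusted p = 0.279), SNORD58 (2.40, SE 0.82, adjusted p = 0.3998), SNORD46 (2.48, SE 0.89, adjusted p = 0.4746) and SNORD29 (3.58, SE 1.35, adjusted p = 0.527). SNORD58 had 225 TPM in that library, 16.0, 53.3 and 50.5 TPM in the F2 controls and 23.8, 35.7 and 27.7 TPM in the F1 controls. That library was its highest of the 13.

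SNORD46 had 47.3 TPM there, 4.39, 8.69 and 10.3 TPM in the F2 controls, 6.10, 4.04 and 1.26 TPM in the F1 controls, 1.02, 1.28 and 2.13 TPM in the F0 controls and 4.68, 2.96 and 1.56 TPM in the F0 exposed libraries. SNORD29 had 22.7 TPM there, 0.251, 1.44 and 4.55 TPM in the F2 controls, 1.02, 5.27 and 1.26 TPM in the F1 controls, 7.37, 2.08 and 7.79 TPM in the F0 controls and 0.180, 0.204 and 1.70 TPM in the F0 exposed libraries. For both the F2 exposed library was the highest of the 13.

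The difference of the exposure effect between F2 and F0 was tested as an interaction. It called U13 alone, 1 of 231 families (0.433%), with a log2 difference of 6.98 (SE 1.39, adjusted p = 0.03483, edgeR). It rests on 22 reads in 1 F2 exposed library, 5 reads in the 3 F2 controls and 14 reads in the 3 F0 exposed libraries. U13 kept its call in 4 of the 11 alternatives in which it was tested and its direction in all 11. SNORD58 (3.94, SE 1.05, adjusted p = 0.1105) and SNORD29 (5.95, SE 1.76, adjusted p = 0.1169) followed. Without F0 exposed replicate 3, 7 snoRNA families passed of 17 in all, and without F2 control replicate 3, 2 did (U13 and SNORD29) of 4 in all. Leaving out each of the other F0 and F2 control and F0 exposed libraries left 0. The F1 controls were not left out for this comparison.

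The U22 host gene, Snhg1 (chr19:8723487-8726326, GRCm38), holds 8 snoRNA genes, U22 and 7 methylation guides. The families of the 7 guides are SNORD25 to SNORD31, of which 6 had reads and 5 were tested. Summed over those guides the level was low, 12.5 ± 6.45 TPM in F0 controls (SD, n = 3), 6.99 ± 1.75 in F0 exposed libraries (SD, n = 3), 15.1 ± 6.36 in F1 controls (SD, n = 3), 21.01 ± 7.01 in F2 controls (SD, n = 3) and 37.4 in the F2 exposed library. None of the 5 passed in any comparison. The signs of their fold changes were mixed, and with none called the values cannot show whether they moved together. In the F0 comparison 4 were lower and 1 higher (3 and 2 under library totals). In F2 against F0 controls 3 were higher, up to 2.06 for SNORD30 (SE 0.93), and 2 lower, down to -2.25 for SNORD29 (SE 1.10), where library totals gave 4 higher and 1 lower.

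snoRNA pieces also appear in the table as miRNAs. By coordinates, 22 known miRNAs and 25 predicted ones (24 with reads) overlap snoRNA or scaRNA genes of GENCODE M21 on the same strand, and 16 of each kind could be tested. The known ones lie wholly inside. Of the predicted hairpins 17 lie wholly and 8 partly inside, and 3 of the 16 tested have more bases outside than inside. The 22 known ones include the named examples miR-1291, miR-664 and miR-1839. The rest were chosen after their values were seen. Their lists are complete for 16 libraries (known) and 18 (predicted). The genes of 5 are printed with the listed piece in capitals, 4 of them at the start of the gene and the last near its end.

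miR-5121 in Snord33, chr7:45126864-45126947, minus strand: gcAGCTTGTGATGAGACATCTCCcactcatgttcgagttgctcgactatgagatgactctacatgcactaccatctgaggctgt

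miR-3535 in Gm24148, chr1:86352008-86352087, minus strand: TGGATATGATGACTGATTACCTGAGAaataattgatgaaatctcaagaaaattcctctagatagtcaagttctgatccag

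miR-1291 in Snora34, chr15:98519716-98519853, minus strand: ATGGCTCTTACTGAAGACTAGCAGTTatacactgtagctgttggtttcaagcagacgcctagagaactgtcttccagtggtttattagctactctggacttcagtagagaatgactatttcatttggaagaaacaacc

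novel_mir5550 in the scaRNA gene Gm26083, chr11:117077243-117077435, plus strand: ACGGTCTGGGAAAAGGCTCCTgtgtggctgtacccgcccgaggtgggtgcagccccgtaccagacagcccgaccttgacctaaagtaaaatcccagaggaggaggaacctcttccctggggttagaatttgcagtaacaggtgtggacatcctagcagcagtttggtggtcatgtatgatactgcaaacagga

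miR-664-3p in Snora36b, chr1:185242907-185243038, plus strand: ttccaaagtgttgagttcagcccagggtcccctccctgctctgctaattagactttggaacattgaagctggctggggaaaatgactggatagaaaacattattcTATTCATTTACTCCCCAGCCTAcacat

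The mature miRNAs from RefSeq (GRCm38.p6), with the seed (bases 2 to 8) in capitals, read as follows. The seed is the stretch by which miRNAs pair with their targets.

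miR-5121: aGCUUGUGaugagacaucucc

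miR-1291: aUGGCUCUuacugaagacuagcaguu

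miR-664-3p: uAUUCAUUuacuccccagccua

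In F0 exposed against control males, none of the 16 known miRNAs passed, as was so for all 735 tested (0.0%, edgeR). miR-5121 stood at 395, 61.5 and 105 TPM in controls and 6.59, 12.6 and 48.6 TPM in exposed libraries, with no overlap (log2 fold change -3.20, SE 0.86, adjusted p = 0.7064, edgeR). DESeq2 called it, and no other of the 16, though its calls over all 735 were not counted. miR-1291 stood at 1.45, 1.65 and 2.24 TPM and 0.180, 0.0680 and 0.331 TPM (log2 fold change -3.26, SE 0.93, same adjusted p), again with no overlap. miR-3535 stood at 73.0, 2.65 and 92.0 TPM and 13.2, 10.7 and 3.45 TPM, which overlapped (log2 fold change -2.34, SE 0.90). The other named examples, miR-664-3p (0.34, SE 0.55) and miR-1839-5p (-0.41, SE 0.77), were near 0.

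Of the 16 predicted miRNAs 1 passed, novel_mir5550, against 1.34% of the 299 tested. It stood at 23.8, 1.89 and 33.8 TPM in F0 controls and 0.324, 0.238 and 0.945 TPM in F0 exposed libraries, with no overlap, and fell by 5.12 on the log2 scale (SE 1.20, adjusted p = 0.03966, edgeR). In F1 controls it was 0.313, 0.595 and 0.0392 TPM, in the F1 exposed line 0.523, 1.14 and 1.19, in F2 controls 0.502, 0.885 and 0.153 and in the F2 exposed line 0.925, 1.05 and 0.538. The F0 controls were the 3 highest of 18 libraries. The call was lost without F0 control replicate 1 or 3 and without F0 exposed replicate 1 or 2. In F2 against F0 controls none of the 16 known miRNAs passed, against 0.136% of all known miRNAs tested. In that comparison 2 of the 16 predicted ones passed, both lower, against 1.67% of all predicted, novel_mir5550 (-5.40, SE 1.22, adjusted p = 0.02175) and novel_mir2876, at the start of the snoRNA gene Gm24134 (-5.07, SE 1.22, adjusted p = 0.03176, edgeR).

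Set out by where the piece starts, a split made after the values were seen and so without a test, 28 of the tested miRNAs could be placed in their host gene. Of the 10 that start within its first 3 bases, all 10 had lower values in the F0 exposed males, with a median log2 fold change of -2.28 (range -5.12 to -0.60). Of the 18 that start later 8 were lower and 10 higher, with a median of 0.11 (range -2.04 to 1.52). The F0 median over all miRNAs tested was 0.10 for known and 0.22 for predicted ones. In F2 against F0 controls the medians were -2.59, with 8 of 10 lower, and 0.18, with 8 of 18 lower. In F1 against F0 controls they were -1.04, with 9 of 10 lower, and -0.12, with 11 of 18 lower. In F2 against F1 controls they were -0.27, with 6 of 10 lower, and 0.23, with 7 of 18 lower. The pieces come from the same libraries and are not replicates of the exposure. These comparisons share the F0 controls, and the known and the predicted miRNAs were scaled separately.

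**Figure D5:**
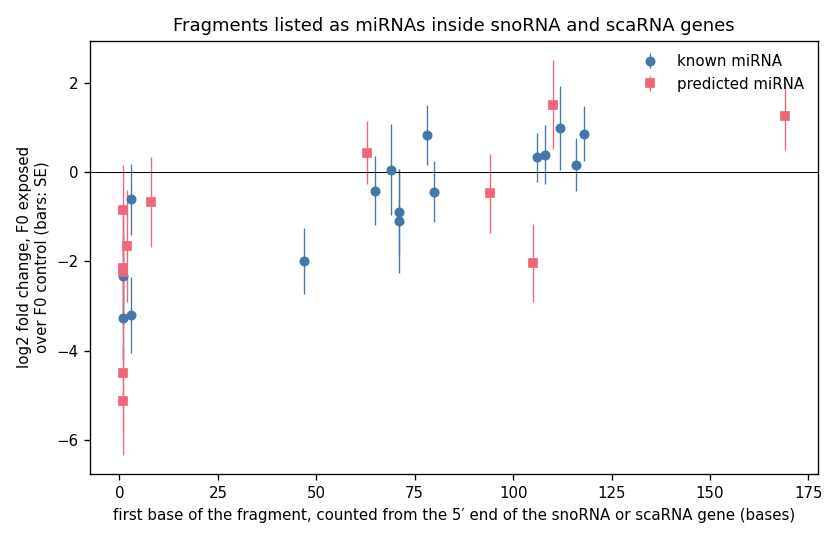
Log2 fold change of F0 exposed over F0 control (y axis, bars are SE) for 28 known and predicted miRNAs in snoRNA and scaRNA genes, against the first base of the piece counted from the 5′ end of the gene (x axis). The 10 pieces at the left edge are all below 0, and the 18 others lie on both sides of 0.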

How the data were processed

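The deposited table has a list of RNA names for each of 18 libraries. Per the file headers, each name carries its count and its TPM. The deposited counts are whole reads, and a check found each deposited TPM value equal to the count per 1000000 reads of the library, with no length term, in all 18 lists (for the 5 partial lists this shows proportionality only). The genome build was mm10, per the submitters' processing notes. How reads were aligned, counted and given to Rfam families is not stated in the sources used here. A read counted under one class may match others.

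Families with at least 1 TPM in at least 3 of the 13 complete libraries (231 of 764) were tested with edgeR 4.0.16 (quasi-likelihood, TMM, group means, all 13 libraries in 1 fit), with Benjamini-Hochberg adjustment over all 231 and a threshold of 0.05. Known and predicted miRNAs were fitted separately in the same way. DESeq2 1.42.0, library totals in place of TMM, no filter, a replicate block and leaving out each library were tried. A fit of only the F0 libraries was also run for the F0 comparison, and its counts are not given here. A term for larger or smaller tRNA level (RF00005, split at the widest gap on the log scale) was added after seeing the data. So was a fit of only the libraries with the larger level. R 4.3.3 was used. Tested on simulated data for the F0 comparison, with 98 of 225 families changed by 3 on the log2 scale, the fit recovered 62 and made 4 false calls.

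Named with values in every library were the 5 families with most reads (U3, SNORD43, RF00217, SNORA42 and SNORD58), the pre-rRNA processing families (U3, U8, U14, U22 and U13), each family called in a comparison, and, where none was called, the 4 with the smallest p. The host gene and H/ACA families were named by examples. The families and the lists were chosen with earlier results of these data known. A permutation test planned for the summed level was not made, since the members were chosen with results known. Role and name of each family are background knowledge, not from the table. Totals of 18072900 to 29430555 reads in the 13 libraries put the floor of 3 reads at 0.102 to 0.166 TPM.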

Additional observations from a re-analysis of the deposited data

Results flagged for a closer look

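The exposure effect on U13 differed between F2 and F0 by 6.98 on the log2 scale (SE 1.39, adjusted p = 0.03483, edgeR interaction term). The F0 effect was -3.50, lower in 3 of 3 exposed libraries, and the F2 effect was 3.48, from 1 exposed library that lay above all 3 of its controls. U13 had 22 reads in that library and between 0 and 4 in each of the F2 controls. U13 passed the level filter only through the F0 controls, which enter this difference, so the call supports nothing by itself, and it was lost in 7 of the 11 alternatives in which it was tested.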

How the results depend on the processing

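Counts of snoRNA families called by edgeR moved with the settings, and the cause was not tested. With DESeq2 there were 8 in F0 exposed against control, 5 in F1 against F0 controls, 14 in F2 against F0 controls, 2 in F2 against F1 controls and 5 in the difference of the exposure effect, where edgeR gave 0, 0, 7, 0 and 1. Of all families DESeq2 called 27, 28, 67, 16 and 12, and edgeR 0, 0, 27, 2 and 1. With no filter there were 5, 3, 8, 1 and 4 snoRNA families, of 15, 15, 43, 14 and 11 in all. Library totals gave 0 for the difference of the exposure effect. Leaving out 1 library at a time gave 0 to 8 calls in F0 exposed against control (8 without F0 exposed replicate 3), 3 to 7 in F2 against F0 controls (3 without F0 control replicate 1) and 0 to 7 in the difference of the exposure effect. Leaving out the only F2 exposed library could not be run. In only the libraries high in tRNA the counts were 7 in F0, 2 in F1 against F0 controls and 1 in F2 against F0 controls, where 3 libraries remained. The term for larger or smaller tRNA level gave 0 in F0 exposed against control, 10 in F2 against F0 controls and 0 for the difference of the exposure effect. The comparison of the F2 exposed line gave 0 in each setting run. Among snoRNA-derived miRNAs in F0, DESeq2 called 1 known (edgeR 0) and 3 predicted (edgeR 1), and leaving out 1 library gave 0 to 1 predicted. The DESeq2 calls over all known and all predicted miRNAs were not counted, so no share stands beside these. Of the fold changes recomputed (families called or with the smallest p, others printed with a fold change, and 5 known miRNAs in F0) those of SNORA70 and miR-664-3p reversed. SNORA70 in F2 against F0 controls went from -0.39 to 0.45 under library totals and 0.35 in only the libraries high in tRNA, and miR-664-3p went from 0.34 to -0.14 without F0 control replicate 1 (-0.14 to 0.49 with 1 library left out). The log2 ratio of the summed levels in F0, 0.44, became -0.48 without U3 and also without F0 exposed replicate 2. Depth limits U13, U8 and the other families with few reads.

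Deviations from the group means in same-numbered F0 libraries had correlations of 0.12, -0.18 and -0.38. So few pairs cannot settle whether the replicate numbers pair the libraries. With a replicate block there were 7 calls in F2 against F0 controls, 0 in the difference of the exposure effect and 0 among the predicted miRNAs. In the other comparisons the block left the counts of called families at 0.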
